A study of Mus musculus with 31 samples.

Results

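The genes described here encode the subunits of the mitochondrial oxidative phosphorylation machinery. They were all symbols of the deposited count table made only of Nduf, a letter a, b, c, s or v and a number, those of Sdha to Sdhd, and those that begin with Uqcr, with Cox and a number from 4 to 8, or with Atp5. This gave 84 of the 25239 symbols: 36 of complex I, 4 of complex II, 8 of complex III, 19 of complex IV (the processed pseudogene Cox7c-ps1 among them) and 17 of complex V. Complexes were assigned by symbol, so Ndufa4, now regarded as part of cytochrome c oxidase (complex IV), is counted in complex I throughout. RNA was sequenced from hepatocyte preparations and from preparations labelled hepatic stellate cells (HSC), taken from the livers of C57BL/6J mice. The mice were female or male, and had been given standard chow or a fructose-palmitate-cholesterol diet (FPC, labelled NASH) for 16 weeks. Each of the 8 groups had 4 libraries from independent mice, except females on chow with the HSC label, of which replicates 1, 2 and 4 were analysed. No age of the mice is given, and whether both preparations with the same number came from the same mouse, is not stated in the labels. Both preparations are cell pellets or gradient fractions of digested liver and not sorted cells.

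The respiratory chain passes electrons from NADH (through complex I) and from succinate (through complex II) by way of ubiquinone to complex III, then through cytochrome c to complex IV, where oxygen is reduced. Complexes I, III and IV pump protons across the inner mitochondrial membrane, and complex V, the ATP synthase, uses the returning protons to make ATP. Hepatocytes are rich in mitochondria, and liver runs urea synthesis and gluconeogenesis on the ATP that this chain supplies. The subunits encoded in the mitochondrial genome are not analysed here, so each complex stands for its nuclear-encoded genes.

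Total counts ran from 3442266 to 30393415 in the 16 hepatocyte libraries and from 9440494 to 40258392 in the 15 libraries with the HSC label. Replicate 4 of the males on FPC stood apart among the hepatocyte libraries: 84.3% of its counts lay on Rn45s, the ribosomal RNA precursor, and 1383940 counts remained outside Rn45s, Lars2 and Mir6236. Subunit genes took 0.0532% of the counts there, against 0.872 to 1.81% in the other 15 hepatocyte libraries. The HSC label went against its markers. On chow, 9 of 10 markers of quiescent stellate cells and 7 of 9 markers of activated stellate cells were lower under the HSC label than in hepatocyte preparations, with medians of -2.62 and -2.11 on the log2 scale, while 6 of 9 lymphocyte and 4 of 8 neutrophil markers were higher. Summed quiescent stellate markers were 90.3 to 189.9 CPM in the HSC-labelled chow libraries, summed Kupffer cell markers 2103 to 13144 CPM, and no marker of either list was at 0. In the hepatocyte chow libraries, summed Kupffer cell markers were 5355 to 18084 CPM and summed endothelial markers 5876 to 15019 CPM. Under the HSC label 4 of 12 Kupffer cell and 9 of 10 endothelial markers were lower, and none of either list was higher. In this comparison of preparations on chow, 26.8% of all 15754 genes tested were lower and 32.8% higher at an adjusted p under 0.05 (edgeR). The share of lower Kupffer cell markers was thus near that of all genes. The HSC-labelled libraries are therefore called by their label throughout. Levels below are CPM (counts per 1000000 counts of a library, the library size scaled by the trimmed mean of M-values, TMM), and fold changes are on the log2 scale with edgeR's quasi-likelihood test and the Benjamini-Hochberg adjustment over all genes tested. A gene was called at an adjusted p under 0.05.

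Low-count filtering left 80 of the 84 subunit genes in hepatocytes and 79 with the HSC label. Cox7b2 and Cox8c, isoforms described in testis, had 0 counts in all 31 libraries. Cox4i2 was under the filter in both preparations, and Cox8b only under the HSC label. Ndufs5, an accessory subunit of complex I, had 0 counts in 30 libraries and 1 count in the other. Of its transcript, 53.3% matches another gene at 95% identity or more, and no level is given for it. The same kind of match affects 35 subunit genes in all, and covers 50% or more of the transcript in 15, and the counts of those genes are uncertain. Exons of 23 subunit genes overlap another gene, and no source used here states whether counting used strand.

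In hepatocyte preparations, subunit genes were lower on FPC than on chow when both sexes were averaged. Of the 80 tested, 25 fell (31.2%) and 1 rose, where 12.1% of the 14430 genes tested were called in either direction, 6.65% fell and 5.47% rose. Their median log2 difference was -0.72, against 0.09 over all genes, and 75 of 80 lay below 0. At an unadjusted p under 0.05 there were 64 subunits and 34.3% of all genes. Falls were found in complex I (12 of 35 tested), complex II (4 of 4), complex IV (2 of 16) and complex V (7 of 17), and in 0 of 8 tested genes of complex III. In bulk samples, fewer cells of a type and less RNA per cell cannot be told apart.

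**Figure D1:**
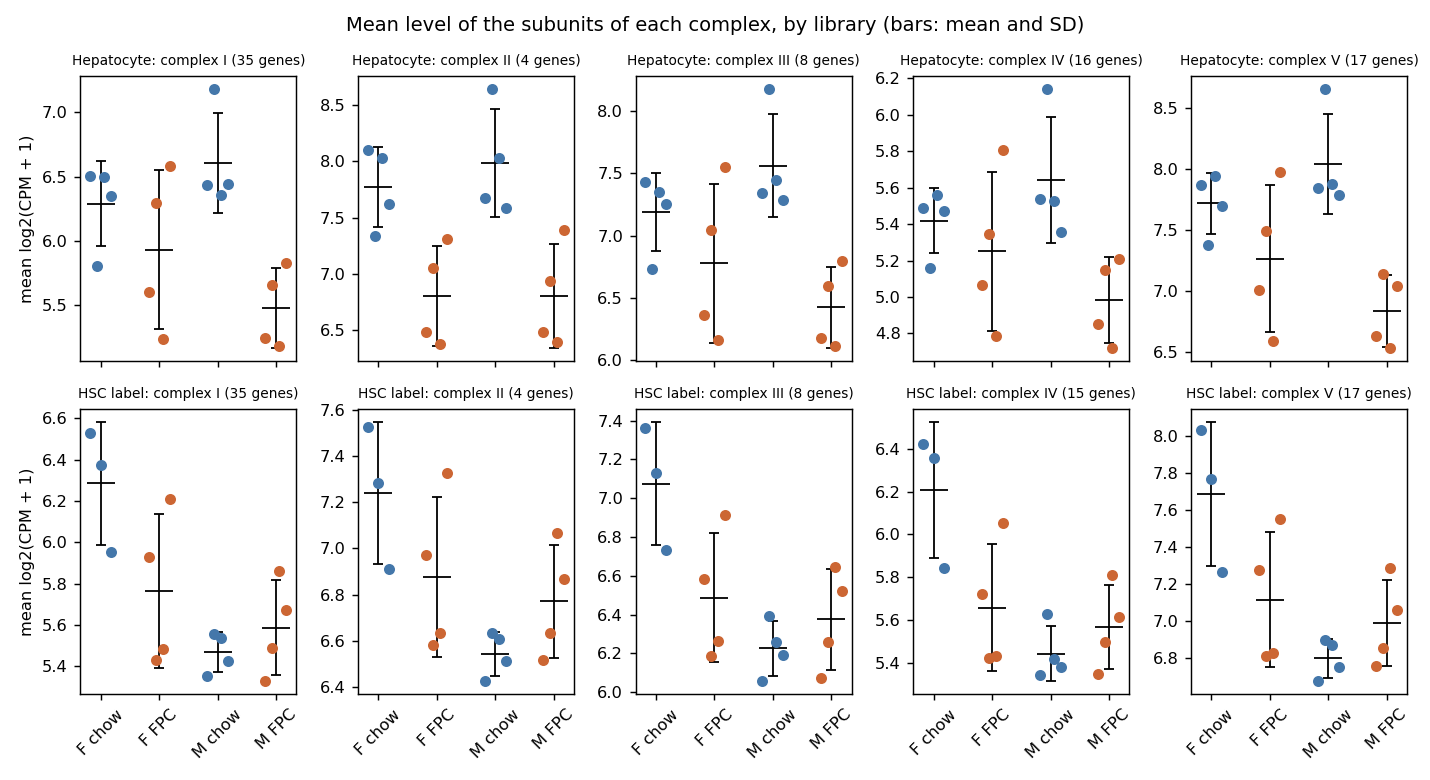
Mean log2(CPM + 1) of the tested subunits of each complex (columns) in each hepatocyte library (top) and each HSC-labelled library (bottom), by sex (F, M) and diet. Points are libraries in order of replicate number and bars the group mean and SD (n = 4, but n = 3 for F chow with the HSC label). The 4 male FPC hepatocyte libraries sit below the 4 male chow libraries in all complexes, while 2 of the female FPC libraries lie within the female chow range or above it in complexes I and III to V. In complex II all 4 female FPC libraries lie below the female chow libraries.

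Complex II, succinate dehydrogenase, was the only complex whose tested genes were all called. It oxidises succinate in the tricarboxylic acid cycle and has no mitochondrially encoded subunit. Sdhd, a membrane anchor (chr9:50596357-50603812, GRCm38), had 214, 157, 206 and 151 CPM in females on chow and 60.8, 55.3, 74.0 and 123 CPM in females on FPC. Males had 165, 264, 211 and 103 CPM of Sdhd on chow and 70.3, 89.0, 69.9 and 126 CPM on FPC. The female diet groups did not overlap, and in males replicate 4 on chow lay below replicate 4 on FPC. The log2 difference for Sdhd over both sexes was -1.14 (SE 0.24, adjusted p = 0.0106). Sdhb, the iron-sulfur subunit (chr4:140961203-140979193), had 299, 152, 272 and 166 CPM in females on chow and 70.9, 145, 61.8 and 169 CPM on FPC. In males, Sdhb had 159, 397, 253 and 208 CPM on chow and 59.6, 96.8, 62.6 and 127 CPM on FPC, and these male groups did not overlap. Its log2 difference was -1.28 (SE 0.28, adjusted p = 0.0139). Sdha, the flavoprotein that binds succinate (chr13:74322254-74350280), had 432, 274, 363 and 376 CPM and 202, 265, 177 and 234 CPM in females on chow and FPC. For Sdha in males the values were 359, 733, 485 and 448 CPM on chow and 204, 248, 174 and 389 CPM on FPC, where replicate 4 on FPC was above replicate 1 on chow. The difference for Sdha was -0.86 (SE 0.22, adjusted p = 0.0232). The flavoprotein groups did not overlap in females. Sdhc, the other membrane anchor (chr1:171127165-171150603), had 199, 103, 222 and 156 CPM in females on chow, 70.3, 139, 55.9 and 126 CPM in females on FPC, 183, 329, 178 and 139 CPM in males on chow and 71.7, 101, 62.1 and 124 CPM in males on FPC. Its groups overlapped in females only, and the difference was -1.0 (SE 0.26, adjusted p = 0.0246).

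**Figure D2:**
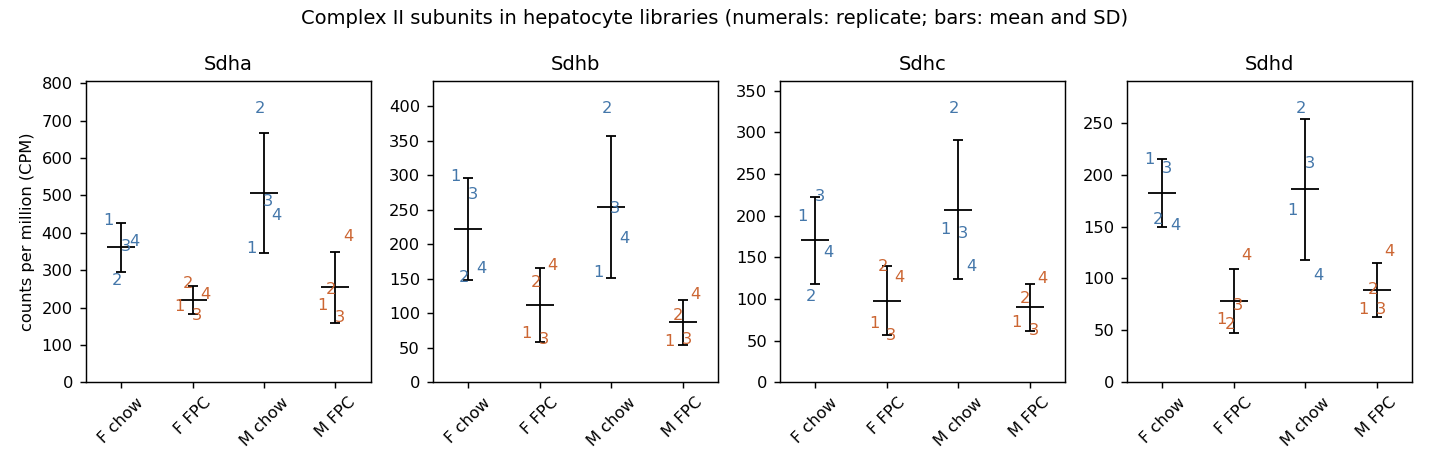
Level of the 4 complex II genes in CPM (vertical axes) in the 16 hepatocyte libraries, by sex and diet. Each numeral marks a library at its replicate number, and bars give the group mean and SD (n = 4). Replicate 2 of the males on chow is the highest library for each of the 4 genes, and replicate 4 of the males on FPC is the highest of its group.

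The promoters of subunits that fell together are shown because nuclear-encoded respiratory genes are known targets of NRF1, of ETS family factors such as GABP, of YY1 and of the estrogen-related receptors (ERR). The stretches come from RefSeq windows (GRCm38.p6) and run 5′ to 3′ on the gene's strand. Each is the part of the 250 bases before the RefSeq start site that lies outside any annotated exon. Shown are the 5 subunits with the smallest p over both sexes, Sdha as a further complex II gene, and Cox6b2, the subunit that rose. No RefSeq window was found for Sdhc. Capitals mark a match to the NRF1 motif (GCGCA and GCGC separated by 1 base of any kind), the ETS motif CCGGAAG, the YY1 motif AANATGGCG or the ERR motif AAGGTCA on either strand. The ETS and ERR motifs can share letters where they adjoin.
Ndufc2 (chr7:97399753-97400002, plus strand): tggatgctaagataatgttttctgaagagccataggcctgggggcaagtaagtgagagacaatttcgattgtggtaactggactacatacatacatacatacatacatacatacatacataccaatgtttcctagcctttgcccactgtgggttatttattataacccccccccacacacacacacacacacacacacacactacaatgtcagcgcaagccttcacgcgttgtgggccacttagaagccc
Sdhd (chr9:50603850-50603909, minus strand): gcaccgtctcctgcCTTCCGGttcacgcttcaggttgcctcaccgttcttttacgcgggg
Atp5g3 (chr2:73911327-73911576, minus strand): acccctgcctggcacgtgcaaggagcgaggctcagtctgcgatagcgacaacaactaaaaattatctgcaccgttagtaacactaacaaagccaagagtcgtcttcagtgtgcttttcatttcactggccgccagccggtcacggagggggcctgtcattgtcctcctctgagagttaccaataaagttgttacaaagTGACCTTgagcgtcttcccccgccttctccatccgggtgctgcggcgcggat
Sdhb (chr4:140961021-140961202, plus strand): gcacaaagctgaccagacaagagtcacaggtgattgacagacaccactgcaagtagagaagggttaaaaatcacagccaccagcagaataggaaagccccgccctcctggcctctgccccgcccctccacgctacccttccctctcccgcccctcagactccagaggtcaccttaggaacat
Ndufb4 (chr16:37654454-37654618, minus strand): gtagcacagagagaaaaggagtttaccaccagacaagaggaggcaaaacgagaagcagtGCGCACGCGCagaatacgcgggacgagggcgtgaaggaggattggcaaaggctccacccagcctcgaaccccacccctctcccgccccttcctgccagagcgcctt
Sdha (chr13:74350281-74350308, minus strand): ggaggggcgtgttGCGCAGGCGCagaat
Cox6b2 (chr7:4753095-4753225, minus strand): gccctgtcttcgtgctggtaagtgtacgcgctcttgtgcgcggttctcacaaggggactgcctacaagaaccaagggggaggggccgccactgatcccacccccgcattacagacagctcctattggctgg

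In these stretches an ETS match lay 46 bases before the RefSeq start site of Sdhd, an ERR match 52 bases before that of Atp5g3, and NRF1 matches 191 and 55 bases before those of Ndufb4 and Sdha. The printed stretches of Ndufc2, Sdhb and Cox6b2 held no match to these letters. Elsewhere in the RefSeq windows, Sdhb held an ETS match, Sdhd NRF1 and ERR matches, Atp5g3 an NRF1 match and Ndufb4 an ERR match. Over the full windows, from 250 bases before to 50 after the start, 68 of the 84 subunits had a RefSeq entry, with 73 windows. The NRF1 motif was present in 24.7% of these windows, against 4.60% of the 32851 windows of all genes. The corresponding shares were 23.3% and 8.86% for ETS, 13.7% and 2.38% for YY1, and 11% and 4.72% for ERR. At least 1 of the 4 motifs was in 54.8% of subunit windows and in 18.5% of all windows. By complex, NRF1 letters were in 8 of 34 windows of complex I, 2 of 3 of complex II, 1 of 5 of complex III, 1 of 13 of complex IV and 6 of 18 of complex V. YY1 letters were in 7 windows of complex I and 3 of complex V, and in 0 of the other complexes. A match describes letters and is not a measured binding site.

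In complex I, which oxidises NADH, 12 of 35 tested genes fell and none rose. Ndufa4, counted by its symbol among the accessory subunits of complex I, was among the 12. The median log2 difference was -0.71. Ndufc2, an accessory membrane-arm subunit (chr7:97400003-97407802), had the smallest p of all subunits. Its values were 34.5, 33.0, 42.7 and 42.1 CPM in females on chow and 23.9, 21, 24.6 and 22.7 CPM in females on FPC. In males Ndufc2 stood at 63.6, 51.9, 37.7 and 31.9 CPM on chow and 24.9, 25.6, 24.9 and 20.3 CPM on FPC. All 8 FPC libraries were below all 8 chow libraries, which held for 2 subunits, Ndufc2 and Cox5a (named after its values were seen), and for 0.347% of all genes. The log2 difference of Ndufc2 was -0.83 (SE 0.17, adjusted p = 0.0103). Ndufb4, an accessory subunit of the membrane arm (chr16:37647170-37654453), had 96.5, 55.5, 102 and 55.7 CPM on chow and 28.4, 43.0, 22.6 and 78.0 CPM on FPC in females. Among males it had 59.5, 134, 73.8 and 53.8 CPM on chow and 20.6, 30.9, 22.2 and 33.9 CPM on FPC. Replicate 4 of the females on FPC was within the female chow range, and the male groups did not overlap. The difference was -1.22 (SE 0.28, adjusted p = 0.0159), and 40.2% of the Ndufb4 transcript matches another gene.

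Ndufs8, which carries iron-sulfur clusters of the peripheral arm (chr19:3908863-3912774), fell by 1.07 (adjusted p = 0.0226). Its mean was 160.4 ± 43.3 CPM on chow and 78.6 ± 40.3 CPM on FPC (SD, n = 8 each). The accessory subunits Ndufc1 and Ndufb8 differed by -0.99 (SE 0.25, adjusted p = 0.0231) and -0.89 (SE 0.24, adjusted p = 0.0259). The 7 core subunits, those conserved from bacteria, held 2 of the 12 calls, and the 28 tested accessory subunits 10. Medians of the core and accessory genes were -0.69 and -0.71. The complex I genes nearest to 0 were the accessory subunits Ndufa6, with -0.04 (SE 0.21, adjusted p = 0.915), and Ndufa5, with -0.32 (SE 0.24, adjusted p = 0.341), both chosen after their values were seen.

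In complex III, which hands electrons from ubiquinol to cytochrome c, 0 of 8 genes were called by edgeR's test, although 6 had an unadjusted p under 0.05 and DESeq2 called 4. All 8 differences were below 0, from -0.98 to -0.38. Uqcrb, which contributes to the ubiquinone-binding site, came nearest with -0.54 (SE 0.17, adjusted p = 0.0503). Uqcrfs1, the Rieske iron-sulfur subunit, was the least different with -0.38 (SE 0.18, adjusted p = 0.153).

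In complex V, 7 of 17 genes fell and the median was -0.74. The differences farthest from 0 were in genes of the membrane c ring, which turns as protons pass. The mature c subunit is encoded by 3 genes. Atp5g3 (chr2:73908447-73911326) had 341, 197, 328 and 304 CPM in females on chow and 132, 177, 118 and 276 CPM in females on FPC. Its male values were 362, 761, 385 and 359 CPM on chow and 122, 177, 119 and 213 CPM on FPC. The diet groups did not overlap in males, and in females replicate 4 on FPC was above replicate 2 on chow. Atp5g3 differed by -1.15 (SE 0.25, adjusted p = 0.0125). Atp5g1 (chr11:96068852-96075670) had means of 266 ± 94.1 CPM on chow and 111 ± 60.0 CPM on FPC (SD, n = 8 each) and differed by -1.27 (SE 0.32, adjusted p = 0.0219). Of the Atp5g1 transcript 59.5% matches another gene, so its counts are uncertain. Atp5g2 was not called, with -0.70 (SE 0.25, adjusted p = 0.0688), and all of its transcript matches another gene. The catalytic subunit Atp5b was not called either, at -0.70 (SE 0.27, adjusted p = 0.0881).

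Complex IV, cytochrome c oxidase, spread most widely, from -2.62 to 1.77. Cox6b1, which faces the intermembrane space, and Cox5a, a matrix-side subunit, were its 2 genes that fell. Cox6b1 averaged 256 ± 82.4 CPM in chow libraries and 138 ± 51.3 CPM in FPC libraries (SD, n = 8 each), a difference of -0.89 (SE 0.24, adjusted p = 0.0264). Cox6b2, the isoform of Cox6b1 described in testis (chr7:4751792-4753094), was the subunit that rose, from a very low level. In females Cox6b2 had 0.721, 1.74, 0.647 and 0.718 CPM on chow and 2.65, 6.04, 0.843 and 2.56 CPM on FPC. In males it had 0, 0, 0.319 and 0.559 CPM on chow and 0.699, 1.4, 0.539 and 1.85 CPM on FPC. Replicate 2 of the females on FPC was the highest library, and the diet groups overlapped in both sexes. The difference was 1.77 (SE 0.55, adjusted p = 0.0463), and Cox6b2 was not called without a low-count filter or with the replicate number as a block. Cox8b, the heart and muscle isoform of Cox8a, had the lowest difference, -2.62 (SE 1.02, adjusted p = 0.0897), and was at 2.49 CPM or less in all hepatocyte libraries but replicate 1 of the females on chow (8.75 CPM). Cox7a2l, a supercomplex assembly factor, and Cox6c, a small membrane subunit, had 0.07 (SE 0.22, adjusted p = 0.834) and 0.08 (SE 0.29, adjusted p = 0.853).

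**Figure D3:**
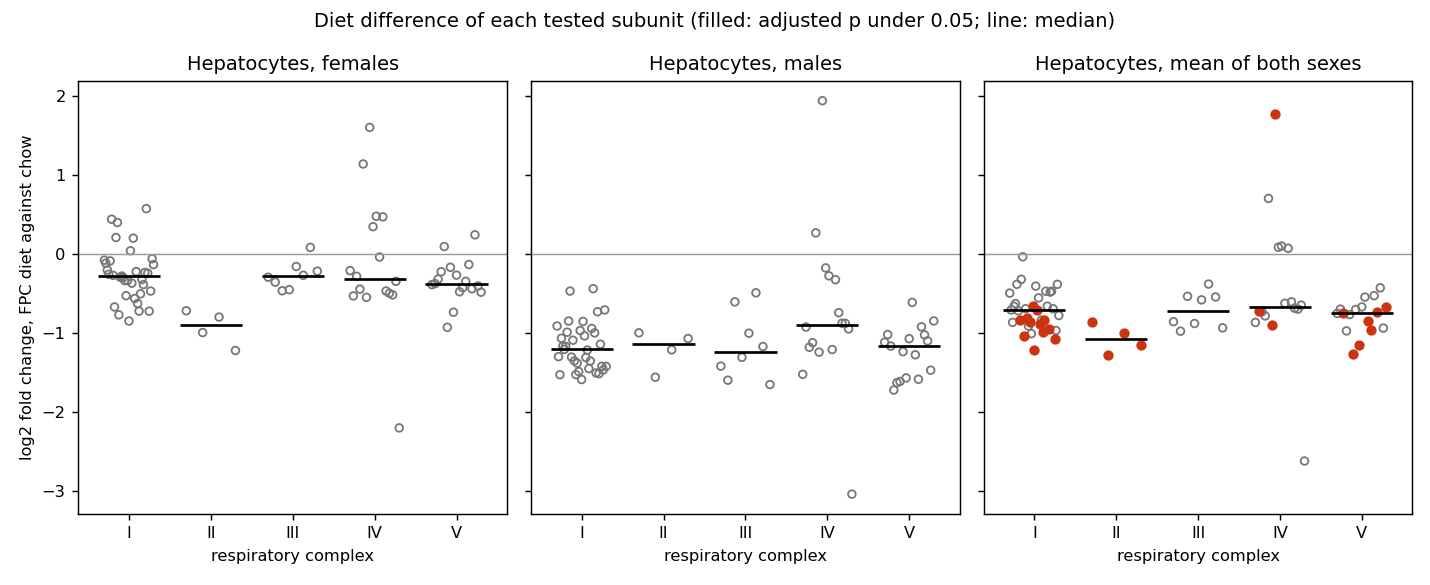
Log2 fold change of FPC against chow (vertical axis) for each tested subunit in hepatocyte preparations, by respiratory complex, in females, males and the mean of both sexes. Filled points have an adjusted p under 0.05 and lines are medians per complex: no point is filled in either sex alone, and 26 are filled in the mean of both sexes, all 4 of complex II among them.

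Within each sex no subunit was called by edgeR. In females 36 of 14430 genes were called, or 0.249%, and 7 subunits had an unadjusted p under 0.05 (16.2% of all genes), while DESeq2 called 2 subunits. The female median was -0.32, and complex II stood lowest with -0.90. In females the 5 subunits with the smallest p were Sdhd at -1.22 (SE 0.33, adjusted p = 0.106), Ndufc2 at -0.72 (SE 0.24, adjusted p = 0.159), Sdhb at -0.99 (SE 0.40, adjusted p = 0.24), Sdha at -0.72 (SE 0.31, adjusted p = 0.269) and Cox6b2 at 1.60 (SE 0.70, adjusted p = 0.271). FPC libraries lay wholly below chow libraries for 4 of 80 subunits in females, against 3.44% of all genes. In males 63 genes were called, or 0.437%, and 71 subunits had an unadjusted p under 0.05 (24.7% of all genes). The male median was -1.17, with complex medians from -1.24 in complex III to -0.90 in complex IV. FPC libraries lay wholly below chow libraries for 61 of 80 subunits in males, against 11.1% of all genes, and wholly above for none, against 6.14%. The smallest adjusted p values in males were those of Atp5g3 with -1.57 (SE 0.36, adjusted p = 0.0641), Ndufa9 with -1.35 (SE 0.34, adjusted p = 0.0838), Ndufb4 with -1.59 (SE 0.40, adjusted p = 0.0838), Ndufc2 with -0.94 (SE 0.24, adjusted p = 0.0847) and Sdhb with -1.56 (SE 0.41, adjusted p = 0.0853). Without replicate 4 of the males on FPC, the library rich in ribosomal RNA, 34 subunits fell in males, and DESeq2 called 48 with that library kept. The share of all genes called in those fits is not given here. The difference between the sexes itself was tested as the diet by sex interaction: 0 subunits and 0 of all genes (0%) were called by edgeR, 17 subunits and 4.19% of genes had an unadjusted p under 0.05, and DESeq2 called 0 subunits. Its median was -0.82, males minus females, and the smallest p were those of Atp5mpl (-1.34), Ndufs6 (-2.09), Cox7a2 (-1.17), Atp5e (-1.72) and Ndufa2 (-1.65), all with an adjusted p of 0.978.

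Markers of hepatocytes and of other cells moved with the diet in the same libraries. Over both sexes, 7 of 12 hepatocyte markers fell, with a median of -1.63, and 0 rose. Their mean log2(CPM + 1) was 8.59 to 9.97 in females on chow and 7.43 to 8.46 on FPC, and 10.1 to 10.9 in males on chow and 7.30 to 10.0 on FPC. Of 12 Kupffer cell markers 8 fell (median -1.06), of 10 endothelial markers 5 fell (-1.10), and of 10 markers of monocyte-derived macrophages 5 rose (1.02). Among 8 neutrophil markers 4 rose (1.69), and among 9 tested markers of activated stellate cells and fibroblasts 3 rose (1.54). Of all 14430 genes tested, 6.65% fell and 5.47% rose in the same comparison. With the hepatocyte marker level as a covariate, an alternative added after the data were seen, 0 subunits were called, the median over both sexes was 0.02, and 3 subunits had an unadjusted p under 0.05, while 253 genes remained called. That covariate did not overlap between the diets in either sex, so this fit cannot separate it from diet, and no conclusion is drawn. With the Kupffer cell marker level as a covariate, the median was -0.72 and 0 subunits and 0 of all genes were called. DESeq2 was not run with these covariates. No marker of the hepatocyte list was at 0 in any hepatocyte group, and its summed level was 18304 to 62152 CPM in females on chow, 5969 to 22742 CPM in females on FPC, 59668 to 128140.4 CPM in males on chow and 6017 to 51111 CPM in males on FPC. The part of any of these lists in the subunit differences was not tested.

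The libraries also differed in how gene levels followed transcript GC content and length, and subunit transcripts are short. In the 80 tested in hepatocytes the median length is 725 bases and the median GC content 51.7%, against 2615 bases and 50.6% over all genes tested. Across genes within a library, Spearman's rho between a gene's deviation from its mean and its GC content ran from -0.59 to 0.64 in the hepatocyte libraries, and that with length from -0.29 to 0.26. The 3 lowest mean deviations of the subunits, -0.85, -0.79 and -0.76, were in male FPC replicate 3, female FPC replicate 3 and male FPC replicate 1, whose rho with GC was -0.52, -0.53 and -0.59. Female FPC replicate 4, with the highest mean deviation among the FPC libraries (0.48), had a rho with length of -0.28, the second lowest of the 16. With spline offsets for GC and length in each library, the median over both sexes was -0.55. The same offsets gave 41 subunits that fell and 1 that rose, of 2982 genes called, and 24 of the 26 subunits called without offsets were among them. By complex, 18 genes of complex I, 4 of complex II, 4 of complex III, 6 of complex IV and 9 of complex V fell with the offsets. The male median moved from -1.17 to -0.79 and the female one from -0.32 to -0.30. The interaction median moved from -0.82 to -0.46.

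**Figure D4:**
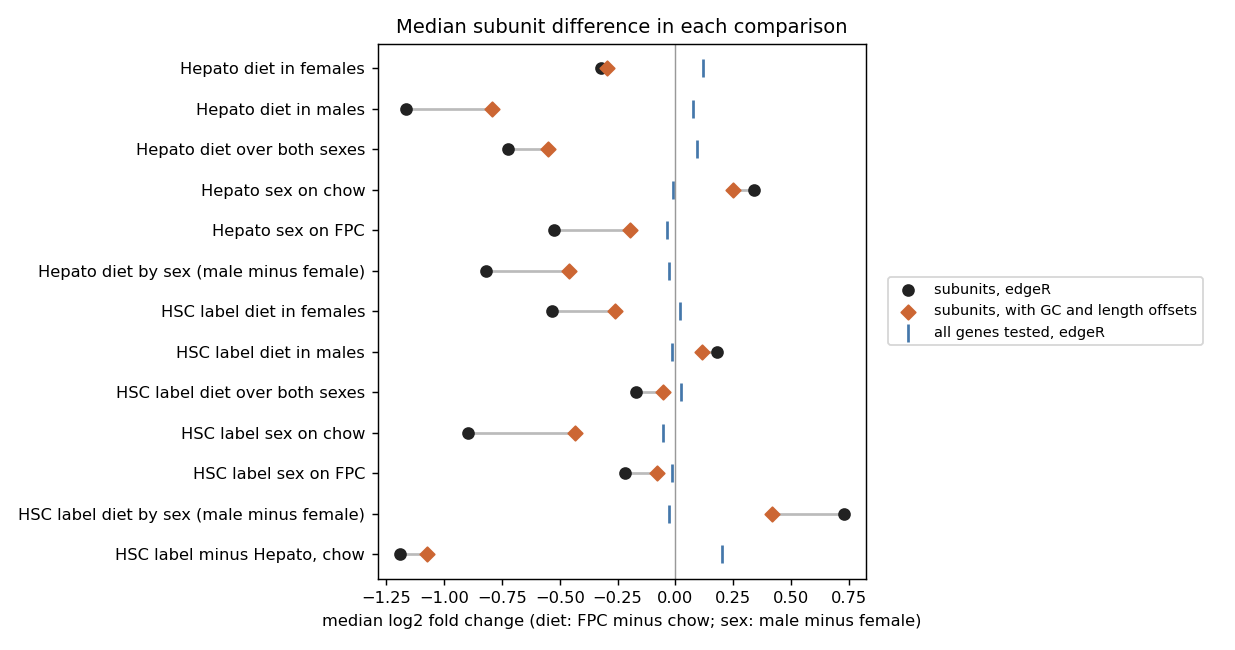
Median log2 fold change of the tested subunits in each of the 13 comparisons (rows), without offsets (circles) and with GC and length offsets per library (diamonds), beside the median of all genes tested (ticks). Each subunit median keeps its sign with the offsets and lies nearer to 0. The largest shifts are in the HSC-labelled sex difference on chow (-0.90 to -0.43) and in hepatocyte males (-1.17 to -0.79).

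Calls in hepatocytes over both sexes depended on single libraries. When each of the 16 libraries was left out in turn, between 5 and 52 subunits were called. Shares of all genes called in those fits are not given here. Sdhb, Sdhd, Ndufb4, Ndufc2 and Atp5g3 were called in each of the 16 fits. The count was 5 without female chow replicate 1, male chow replicate 2, male FPC replicate 1 or male FPC replicate 3. It was 11, 13, 12 and 13 without female chow replicates 3 and 4 and female FPC replicates 1 and 3. It was 48, 52 and 45 without female FPC replicate 2, female FPC replicate 4 and male FPC replicate 4.

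Sex differences in hepatocytes were not called for any subunit on either diet. On chow 62 of 14430 genes were called (0.43%), 1 subunit had an unadjusted p under 0.05 (5.98% of all genes), DESeq2 called 0, and the subunits' median was 0.34, males minus females, with 77 of 80 above 0. The smallest p on chow were those of Cox6b2 at -1.92 (SE 0.83, adjusted p = 0.779), Cox7a2 at 0.65 (SE 0.32, adjusted p = 0.886), Atp5g3 at 0.67 (SE 0.35, adjusted p = 0.896), Uqcrfs1 at 0.50 (SE 0.26, adjusted p = 0.896) and Uqcrc2, a core subunit of complex III, at 0.50 (SE 0.27, adjusted p = 0.909). On FPC 48 genes were called (0.333%), 13 subunits had an unadjusted p under 0.05 (11.4% of all genes), DESeq2 called 0, and the median was -0.53, or -0.20 with the offsets. There the smallest p belonged to Atp5e, the epsilon subunit of the ATP synthase, at -1.52 (SE 0.49, adjusted p = 0.312), Ndufb7 at -1.33 (SE 0.45, adjusted p = 0.339), Ndufs6 at -1.52 (SE 0.53, adjusted p = 0.352), Atp5g2 at -1.0 (SE 0.36, adjusted p = 0.356) and Ndufa2 at -1.32 (SE 0.48, adjusted p = 0.359). Atp5e had 127, 256, 102 and 725 CPM in females on FPC and 92.6, 143, 91.6 and 93.0 CPM in males on FPC. Replicate 4 of the females was far above the other libraries, and replicates 1 and 3 of the females were within the male range. Atp5e was lower in the male than in the female library of each number, but no label pairs these libraries. Their pairing was taken from the data, where replicate 1 of the females matched a male library of another number more closely. With the replicate number as a block over all hepatocyte libraries, the Atp5e difference was -1.32 (adjusted p = 0.51).

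Under the HSC label no subunit was called for diet in either sex or over both, and no gene at all was called (0% in each of the 3 comparisons, of 15430 tested). In females the median was -0.54, 78 of 79 subunits lay below 0, 35 had an unadjusted p under 0.05 (10.1% of all genes), and DESeq2 called 14. FPC lay wholly below chow for 16 of 79, against 2.48% of all genes. With the offsets the female median was -0.26. Of the cell markers, 0 were called in these libraries. Summed Kupffer cell markers were 5288 to 13144 CPM on chow and 2101 to 6059 CPM on FPC (median -0.77 over 12), and summed lymphocyte markers 3199 to 6049 CPM and 1730.2 to 3787 CPM (median -0.29 over 9). Medians were above 0 for neutrophil (1.98 over 8), activated stellate (2.55 over 9) and quiescent stellate markers (1.27 over 10). The part of these in the subunit difference was not tested. Ndufa5, an accessory subunit of complex I, had the smallest p, with means of 35.4 ± 6.02 CPM on chow (SD, n = 3) and 17.8 ± 2.28 CPM on FPC (SD, n = 4) and a difference of -0.99 (SE 0.18, adjusted p = 0.197). Ndufa1, an accessory subunit needed for complex I assembly, had 78.6, 113 and 56.9 CPM in females on chow and 46.2, 43.1, 37.7 and 40.0 CPM on FPC, with a difference of -0.99 (SE 0.21, adjusted p = 0.197), and its groups did not overlap. Atp5mpl, Ndufs4 and Cox7b followed with -0.82 (SE 0.19, adjusted p = 0.278), -0.92 (SE 0.22, adjusted p = 0.286) and -0.96 (SE 0.24, adjusted p = 0.29). Without replicate 4 of the females on FPC, 24 subunits were called, and without replicate 4 of the females on chow, 3. No share over all genes is given here for these counts or for the 14 called by DESeq2.

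In males with the HSC label the median was 0.18, 72 of 79 subunits lay above 0, 0 had an unadjusted p under 0.05 (5.68% of all genes), and DESeq2 called 0. Marker medians in the same libraries were -1.43 for 11 hepatocyte markers (10 below 0), 0.98 for 12 Kupffer cell markers, 1.36 for 10 markers of monocyte-derived macrophages and 1.24 for 9 markers of activated stellate cells. None of these was called by edgeR. By DESeq2 5 of the macrophage markers were higher, where 66 of 15315 genes were called in either direction. The part of these markers in the subunit shift was not tested. The smallest p were those of Atp5md at 0.40 (SE 0.20, adjusted p = 0.912), Cox7a1, the muscle isoform of Cox7a2, at -1.56 (SE 0.82, adjusted p = 0.944), Cox5a at 0.49 (SE 0.26, adjusted p = 0.955), Atp5l at 0.32 (SE 0.19, adjusted p = 0.999) and Ndufv2 at 0.31 (SE 0.19, adjusted p = 0.999). Cox7a1 had 0.953, 8.4, 1.16 and 0.37 CPM in males on chow and 1.15, 0.454, 1.24 and 0.826 CPM on FPC. Its direction rested on chow replicate 2: without that library its difference was 0.14. Over both sexes the median was -0.17 and 11 subunits had an unadjusted p under 0.05 (7.31% of all genes), with Ndufa5 at -0.49 (SE 0.12, adjusted p = 0.303), Ndufa1 at -0.55 (SE 0.14, adjusted p = 0.303), Ndufa2 at -0.40 (SE 0.14, adjusted p = 0.533), Cox6c at -0.38 (SE 0.15, adjusted p = 0.601) and Cox7b at -0.39 (SE 0.16, adjusted p = 0.612). DESeq2 called 2 subunits over both sexes. In the interaction the median was 0.73, males minus females, with 0 subunits and 0% of genes called by edgeR, 34 subunits (and 8.69% of genes) at an unadjusted p under 0.05 and 3 called by DESeq2. The smallest p there were those of Atp5mpl (1.08), Ndufa5 (1.01), Ndufs4 (1.17), Cox7a2 (1.01) and Atp5md (1.08), each with an adjusted p of 0.548.

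Between the sexes on chow, HSC-labelled males had lower subunit levels than females in nearly every gene, without a call. The median was -0.90, against -0.05 over all genes, and 77 of 79 lay below 0. Male libraries lay wholly below female libraries for 75 of 79 subunits, against 18.6% of all genes, and wholly above for 1, Ndufs1, against 20.3% (Ndufs1 was named after its values were seen). By edgeR's adjusted p, 8 of 15430 genes (0.0518%) and 0 subunits were called, with 74 subunits and 29.5% of all genes at an unadjusted p under 0.05. Cox7a2, the liver isoform of its subunit, had 176, 137 and 108 CPM in females on chow and 62.3, 81.0, 81.5 and 60.7 CPM in males on chow, and differed by -0.98 (SE 0.20, adjusted p = 0.0848). Atp5l, Atp5mpl and Atp5md, small membrane subunits of the ATP synthase, had -0.94, -0.88 and -1.01, and Ndufa4, now regarded as part of cytochrome c oxidase, -0.94, each at an adjusted p of 0.0848. The calls turned on the fit: DESeq2, and edgeR fitted to these 2 groups alone, each called 71, and without female chow replicate 4 there were 73. No share of all genes called is given here for those fits. The GC and length trend moved in parallel. Spearman's rho with GC was 0.41, 0.52 and -0.0045 in the 3 female chow libraries and -0.48 to -0.33 in the 4 male ones, and with the offsets the median was -0.43 with 0 called. Kupffer cell markers moved with it too: their summed level was 5288 to 13144 CPM in females and 2103 to 4354 CPM in males, with a median of -1.10 over the 12 markers, 0 of them called. Summed lymphocyte markers were 3199 to 6049 CPM in females and 1948 to 2875 CPM in males, with a median of -0.48 over 9 markers, 0 called. Neither list overlapped between the sexes, no marker of either was at 0 in every library of a group, and their part in the subunit difference was not tested. On FPC the sex difference had a median of -0.22, 0 subunits called by edgeR or DESeq2 where edgeR called 9 genes (0.0583%), and 2 subunits at an unadjusted p under 0.05 (10% of all genes). The smallest p on FPC were those of Ndufs4 at 0.49 (SE 0.21, adjusted p = 0.474), Ndufv1 at -0.55 (SE 0.26, adjusted p = 0.498), Atp5g2 at -0.74 (SE 0.35, adjusted p = 0.505), Ndufa5 at 0.35 (SE 0.17, adjusted p = 0.508) and Atp5d at -0.62 (SE 0.31, adjusted p = 0.511).

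On chow, subunit levels were lower under the HSC label than in hepatocyte preparations. This comparison was fitted on all 31 libraries with a joint scaling, and its CPM values are on that scale. Of 81 subunits tested, 68 were lower and 2 higher, where 59.6% of 15754 genes were called, 26.8% lower and 32.8% higher. The median was -1.19, against 0.20 over all genes, and -1.07 with the offsets, which gave 75 lower and 3 higher. All tested genes of complexes II (4), III (8) and V (17) were lower, as were 30 of 35 in complex I and 9 of 17 in complex IV. Sdha had means of 520.0 ± 162 CPM in hepatocytes (SD, n = 8) and 201 ± 31.8 CPM under the HSC label (SD, n = 7), and a difference of -1.34 (SE 0.17, adjusted p = 5.56e-07). Uqcrq, a small subunit of complex III, had 397 ± 152 CPM in hepatocytes and 63.0 ± 30.8 CPM under the HSC label, a difference of -2.68 (SE 0.37, adjusted p = 1.7e-06). Neither gene overlapped between the preparations, which held for 26 of 81 subunits in this direction, against 11.9% of all genes. The other 10 subunits of smallest p were Atp5g1 (-2.30), Atp5g3 (-1.79), Sdhc (-1.76), Sdhb (-1.86), Ndufv1 (-1.97), Ndufb2 (-1.92), Ndufs3 (-1.70), Atp5k (-1.66), Ndufa9 (-1.30) and Sdhd (-1.33). Higher under the HSC label were Cox7a2l, at 0.46 (SE 0.19, adjusted p = 0.0412), and Cox6b2, at 1.59 (SE 0.47, adjusted p = 0.00594). Preparations also differed in cell markers: 12 of 12 hepatocyte markers were lower under the HSC label, with a median of -5.07, and the part of this in the subunit difference was not tested.

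Levels per length on chow, in CPM per kilobase of transcript (mean ± SD over 8 hepatocyte and 7 HSC-labelled libraries), ordered the members of each complex. Among the genes counted in complex I by symbol, Ndufa4 was highest in both preparations, with 493 ± 158 in hepatocytes and 232 ± 95 under the HSC label. Ndufs4 was the lowest of them in hepatocytes among those tested, with 29.3 ± 6.76. In complex II, Sdhb (249.8 ± 87.6) was highest and Sdhc (113 ± 39.1) lowest in hepatocytes. Complex III ran from Uqcrq (788 ± 301) down to Uqcrfs1 (85.1 ± 26.1). Complex V ran from Atp5e (866 ± 227) down to Atp5g1 (119 ± 41.4), whose low place rests on the transcript length used, 2675.5 bases. In complex IV, Cox4i1 led both preparations, with 949 ± 308 and 317 ± 128, and its hypoxia- and lung-associated isoform Cox4i2 was at 0.529 ± 0.416 and 0.214 ± 0.214. The muscle isoform Cox6a2 was at 4.9 ± 2.85 beside 543 ± 161 of Cox6a1, and Cox6b2 at 1.65 ± 1.59 beside 631 ± 195 of Cox6b1. Cox7a1 had 5.67 ± 4.08, Cox7a2 240.1 ± 92.1 and Cox7a2l 161 ± 49.9 in hepatocytes. Under the HSC label, Cox7a2l (221 ± 74.0) stood above Cox7a2 (127 ± 54.7), and their ranges overlapped. Cox8b was at 6.48 ± 9.82 and Cox8a at 375 ± 114 in hepatocytes. Of the c-ring genes, Atp5g3 was at 633 ± 269, Atp5g2 at 489 ± 121 and Atp5g1 at 119 ± 41.4 in hepatocytes, and the ranges of Atp5g3 and Atp5g2 overlapped. The lengths used, medians over annotated transcripts, were 718.5, 586 and 2675.5 bases in the same order. Without division by length, Atp5g1 was not below Atp5g2. In hepatocytes on chow, Atp5g1 averaged 238 CPM in females and 293 CPM in males, and Atp5g2 234 and 245 CPM.

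**Figure D5:**
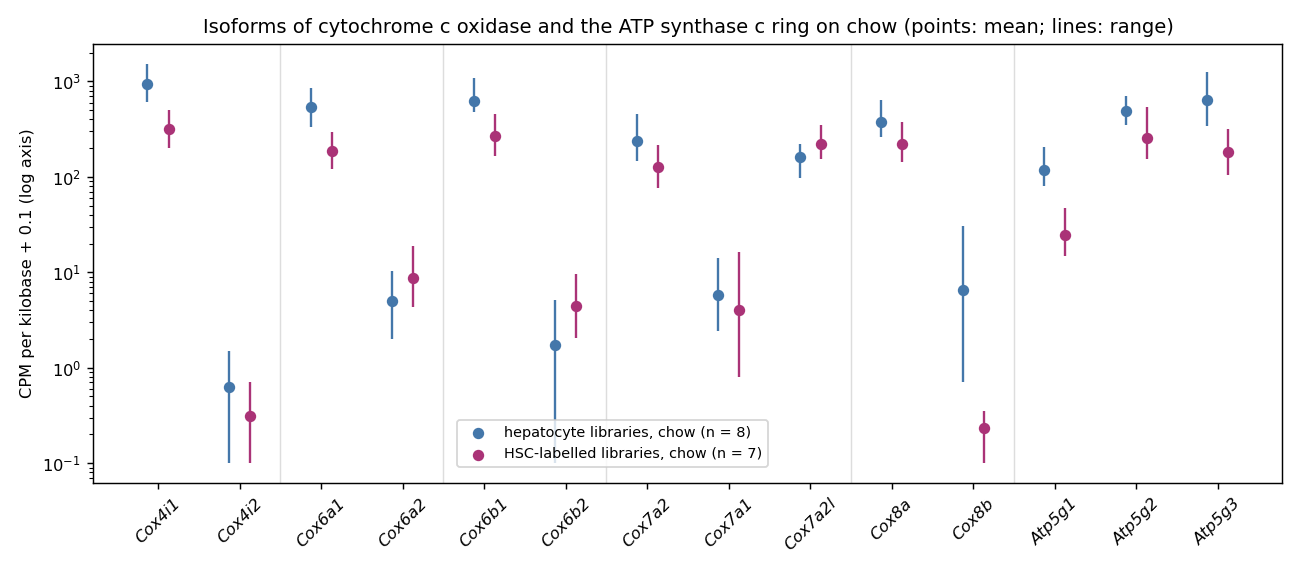
Level per transcript length on chow (vertical axis, CPM per kilobase plus 0.1, log scale) of isoforms of cytochrome c oxidase subunits and of the c-ring genes in the 8 hepatocyte and 7 HSC-labelled libraries. Points are means and lines the range over libraries. The muscle, testis and lung isoforms Cox4i2, Cox6a2, Cox6b2, Cox7a1 and Cox8b lie far below Cox4i1, Cox6a1, Cox6b1, Cox7a2 and Cox8a in both preparations.

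Among 6 other lists of mitochondrial energy metabolism, 4 held genes that fell on FPC in hepatocytes over both sexes and none held a gene that rose. Over all genes tested, 6.65% fell and 12.1% were called. Differences between these lists and the subunits were not tested. Of 27 tested genes of the mitochondrial ribosome and translation, 7 fell (25.9%) and 0 rose, with a median of -0.61. Mrpl13, a protein of the large subunit, differed by -0.86 (SE 0.18, adjusted p = 0.0112), and Mrps27, Mrpl44 and Mrps5 by -1.16, -0.77 and -0.62. Of 45 tested assembly factors 7 fell (15.6%, median -0.31), among them Acad9 and Ndufaf3, both needed to build complex I, with -0.82 and -0.84, Taco1, a translation activator of complex IV, with -0.72, and Sdhaf4, an assembly factor of complex II, with -0.88. Of 16 genes for electron carriers and coenzyme Q synthesis 3 fell (18.8%, median -0.37): Coq8a with -1.68, Coq9 with -0.92 and Etfb, part of the electron transfer flavoprotein, with -1.15. In the tricarboxylic acid cycle 2 of 16 fell (12.5%, median -0.45), fumarase Fh1 with -0.90 and Idh3b with -0.64. None of 7 tested carriers of the inner membrane was called (median -0.46). Among 17 regulators of mitochondrial biogenesis 0 were called, 4 had an unadjusted p under 0.05, and the median was 0.29. Ppargc1b, a coactivator of these genes, had the smallest p among them, with 0.68 (adjusted p = 0.0701), and Esrra, an estrogen-related receptor, had -0.47 (adjusted p = 0.14). By edgeR's test for diet, none of these 6 lists had a called gene within either sex in hepatocytes or in any diet comparison under the HSC label.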

How the data were processed

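RNA of 16 hepatocyte and 15 HSC-labelled mouse libraries was prepared with a NuGEN Ovation kit, per the labels' protocols. The deposited table holds raw gene counts made by the authors, with STAR, featureCounts and mm10 named in the submitters' processing notes; versions, settings, strand use and annotation are not stated. Samples were grouped by cell label, sex and diet. The members and gene lists were chosen with earlier results of these data known. For each cell label a 4-group model was fitted across all genes passing filterByExpr, with TMM scaling and edgeR 4.0.16 (quasi-likelihood), in R 4.3.3; cell labels were compared in an 8-group model. P-values were adjusted by Benjamini-Hochberg over all genes tested, at 0.05. Sex-averaged contrasts weight both sexes equally. The script was tested on simulated data. Other settings were DESeq2 1.42.0, its size factors, no filter, only the groups compared, the replicate number as a block, offsets for GC and length from splines (5 degrees of freedom, prior count 0.5), marker covariates, 3 ribosomal RNA-rich rows left out, and each library left out. Mean levels of lists used log2(CPM + 1).

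Depth is in the report. All 84 symbols matched GENCODE M21 (GRCm38), which gave positions, exon overlaps, length and GC content, and BLAST 2.17.0 gave near-identical transcripts (95% identity over 100 bases or more). Named members were those called, up to 12 per comparison by smallest p, or the 5 of smallest p where fewer than 5 were called, with tissue isoforms and the highest and lowest level per length of each complex; of other lists, up to 4 genes. Same-numbered samples deviated together in 1 pair of hepatocyte groups, females and males on FPC (correlations 0.26, 0.49, 0.64 and 0.39), so the numbers were taken to pair only these, from the data and not from the labels. Replicate 1 of those females correlated more closely with a male FPC library of another number. Females on FPC and males on chow reached 0.53 and 0.64 in replicates 2 and 3. The replicate block was nevertheless fitted over all groups of a cell label, where same-numbered libraries correlated down to -0.65.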

Additional observations from a re-analysis of the deposited data

Results flagged for a closer look

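In groups of 4 libraries, 12 of 185 groups of values had a library far from the other 3 (Dixon's test at the 95% level), where chance gives about 1 in 20 groups. Of these, 5 were the same library, replicate 2 of the hepatocytes of males on chow: the mean log2(CPM + 1) was 7.46 over all subunits, 7.18 over complex I and 8.66 over complex V, and it had 761 CPM of Atp5g3 and 135 CPM of Atp5mpl, each the highest of its group. Among hepatocytes of females on chow, replicate 2 stood apart with 1.74 CPM of Cox6b2 above, and 53.6 CPM of Ndufb7 below, the other libraries. Replicate 3 of the hepatocytes of females on FPC had the lowest Atp5g2, 84.2 CPM. In hepatocytes of males on FPC, replicate 2 had the highest Atp5e, 143 CPM, and replicate 4 the lowest Ndufc2, 20.3 CPM. Under the HSC label, Cox5a was highest in replicate 4 of the females on FPC, at 134.7 CPM, and Ndufa1 stood apart in replicate 3 of the males on chow, at 49.8 CPM. No cause was tested.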

How the results depend on the processing

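The number of subunits called stayed within 1.5 times of the reported one in 224 planned recomputations and moved further in 27, and for settings added after seeing the data the numbers were 8 and 4. Only hepatocytes over both sexes and the cell label comparison had subunits called as reported. In the other comparisons an unmoved count is 0 set against 0, so the 224 say little about how steady calls were. For hepatocytes over both sexes, most fits without 1 library moved by over 1.5 times. Shares of all genes called are not given for the counts in this section. For hepatocytes over both sexes, DESeq2 gave 48 called, GC and length offsets 42, the offsets with the replicate block 41, the offsets without the ribosomal RNA-rich library (added after seeing the data) 56, and the Kupffer and hepatocyte marker covariates 0 each. In hepatocyte males DESeq2 gave 48, the compared groups alone 2, and the offsets without the ribosomal RNA-rich library 42; in females DESeq2 gave 2 and the latter 3. Under the HSC label DESeq2 gave 14 for diet in females, 2 for diet over both sexes, 71 for sex on chow and 3 for the interaction, and the compared groups alone gave 71 for sex on chow. Leaving out 1 library gave 0 to 34 called in hepatocyte males, 5 to 52 over both sexes, 0 to 24 for diet in HSC-labelled females, 0 to 73 for their sex difference on chow, 68 to 71 between cell labels, and 0 in the other comparisons. The causes were not tested. Among the subunits named in the report, directions reversed for Sdhc in hepatocytes over both sexes with the hepatocyte marker covariate (0.0098) and for Cox7a1 in HSC-labelled males without chow replicate 2 (-1.92 to 0.14 over the libraries left out). Over all 80 subunits, the hepatocyte marker covariate left 42 above 0 and 38 below, where 5 and 75 were reported. Within each sex that covariate did not overlap between the diets. The replicate block gave 30 called over both sexes in hepatocytes, 22 of them shared with the reported 26, and moved no other count by over 1.5 times. The depth of the ribosomal RNA-rich library (14501 counts on subunits) limits low genes such as Cox6b2.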
